A study of Mus musculus with 9 samples.

Results

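In mouse pancreas, 1805 genes had all 6 mutant libraries on one side of all 3 wild-type libraries. They are the differences that Snd1 knock-in (Snd1_KI) and S6k2 RK (S6k2_RK) mice shared against wild-type littermates (WT). Both mutants were compared with the same 3 WT mice, so a shared effect of the mutations and a trait of those WT mice cannot be told apart. The genes were chosen by a rule on normalized counts, that is, gene counts divided by 1 size factor per library. Each gene needed a mean normalized count of at least 10 over the 9 libraries, which 11953 of the 46078 genes in the table reached. Its group means were compared as the mean of Snd1_KI and S6k2_RK minus WT on the scale log2(normalized count + 1), and it is called separated here when the 6 mutant libraries did not overlap the 3 WT libraries. Of the 1805 separated genes, 900 were higher and 905 were lower in the mutants, and the remaining 10148 genes tested were not separated.

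The Snd1_KI mice carried a knock-in allele at Snd1, the S6k2_RK mice carried an S6k2 allele labelled RK, and the WT mice were littermates of the mutants. All animals were 8 weeks old, with 3 mice per group, and nothing in the labels gives sex, the exact base changes or whether animals were heterozygous or homozygous. Whole pancreas was snap-frozen and ground, so each library held acinar, duct, islet, vascular and immune cells and any tissue dissected with the organ. PolyA RNA was sequenced as strand-specific paired-end libraries. The title of the series concerns the binding of methylated S6K2 by the Tudor domain of SND1, and a mutation in each partner allows the question of what both mutants have in common.

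SND1 is a multidomain protein whose Tudor domain binds methylated arginine. S6K2, the product of Rps6kb2, is a kinase downstream of mTORC1, the complex that matches protein synthesis to nutrients. Pancreatic acinar cells make and secrete digestive enzymes at a very high rate, and they rely on a large endoplasmic reticulum (ER), on amino-acid supply and on zinc, which is stored in the granules with the enzymes. Lymphocytes are sparse in healthy pancreas but dense in the lymph nodes that lie against the organ.

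The promoters of 6 genes that rose in the mutants are printed because they carry the response elements for which these genes are textbook targets: metal (Mt1, Mt2), amino-acid shortage (Asns, Chac1) and ER stress (Derl3, Pdia6). The sequences are from RefSeq on GRCm38.p6, 5′ to 3′ on the gene's strand, from 250 bases before the RefSeq start to at most 30 bases past the first annotated start. Capitals mark matches to the motif that is named for the gene; a match is a run of letters and not evidence of binding.
Mt1 promoter, chr8:94178839-94179111, + strand: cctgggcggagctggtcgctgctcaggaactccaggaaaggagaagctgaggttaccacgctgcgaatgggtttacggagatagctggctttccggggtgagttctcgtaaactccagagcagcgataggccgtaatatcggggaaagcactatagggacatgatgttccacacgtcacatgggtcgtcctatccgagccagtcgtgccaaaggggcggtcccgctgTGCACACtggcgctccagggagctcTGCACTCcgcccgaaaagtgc
Mt2 promoter, chr8:94172368-94172647, + strand: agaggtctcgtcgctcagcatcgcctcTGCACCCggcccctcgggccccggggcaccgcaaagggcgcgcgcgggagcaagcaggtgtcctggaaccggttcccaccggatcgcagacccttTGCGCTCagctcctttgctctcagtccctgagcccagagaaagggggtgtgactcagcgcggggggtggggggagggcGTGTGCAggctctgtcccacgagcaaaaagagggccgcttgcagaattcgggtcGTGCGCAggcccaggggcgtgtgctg
Asns promoter, chr6:7693225-7693459, - strand: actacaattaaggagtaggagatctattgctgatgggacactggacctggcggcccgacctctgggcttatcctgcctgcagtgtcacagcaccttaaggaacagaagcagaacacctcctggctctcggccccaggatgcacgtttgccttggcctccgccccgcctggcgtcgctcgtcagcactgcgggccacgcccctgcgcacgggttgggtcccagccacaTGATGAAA
Chac1 promoter, chr2:119350992-119351258, + strand: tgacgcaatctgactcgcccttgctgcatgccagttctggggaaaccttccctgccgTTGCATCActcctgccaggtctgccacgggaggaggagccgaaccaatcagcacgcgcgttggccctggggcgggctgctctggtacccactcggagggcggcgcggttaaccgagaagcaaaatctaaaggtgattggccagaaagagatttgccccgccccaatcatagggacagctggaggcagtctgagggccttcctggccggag
Derl3 promoter, chr10:75893148-75893427, + strand: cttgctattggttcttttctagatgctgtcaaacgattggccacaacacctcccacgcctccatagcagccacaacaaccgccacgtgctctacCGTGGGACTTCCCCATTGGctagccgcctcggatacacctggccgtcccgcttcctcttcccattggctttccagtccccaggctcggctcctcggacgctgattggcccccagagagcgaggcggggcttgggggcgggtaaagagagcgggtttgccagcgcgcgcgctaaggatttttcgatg
Pdia6 promoter, chr12:17266339-17266574, + strand: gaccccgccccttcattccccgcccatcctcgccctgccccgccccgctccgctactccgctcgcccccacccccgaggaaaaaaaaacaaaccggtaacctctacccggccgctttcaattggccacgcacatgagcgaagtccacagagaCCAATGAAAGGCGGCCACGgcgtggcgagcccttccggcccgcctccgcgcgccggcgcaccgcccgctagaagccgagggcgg

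The metal response element was searched as TGCACNC or TGCGCNC, the C/EBP-ATF element as TGATGNAA and the ER stress element as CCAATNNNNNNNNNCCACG, each on both strands of the 300-base windows that run from 250 bases before to 50 after the start. No marked match overlaps another. The Mt1 window held 3 metal response matches, of which 2 are printed, and the Mt2 window held 4. The table of promoters covered 711 of the separated higher genes with 924 windows and 694 of the separated lower genes with 931 windows. The metal response letters are short and stood in 37.8% of windows of separated higher genes, 32.3% of separated lower genes, 36.0% of genes tested and 25.7% of all windows. The C/EBP-ATF letters stood in 2.81% of windows of separated higher genes, against 2.15% of separated lower genes, 2.19% of genes tested and 3.97% of all windows. The ER stress letters stood in 6 of the 924 windows of separated higher genes, those of Acacb, Canx, Derl3, Dnajc3, Pdia6 and Syvn1, and in none of the 931 windows of separated lower genes. Among all genes tested the same letters stood in 18 of 11984 windows, or 0.150%, and among all promoters in 39 of 32851 windows, or 0.119%.

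The libraries held 13461427 to 21034501 reads assigned to genes. Digestive enzymes took 74.9% ± 0.494 of normalized counts in Snd1_KI, 76.4% ± 0.894 in S6k2_RK and 71.2% ± 0.843 in WT (mean ± SD, n = 3 each). The mutant mean was 4.39 percentage points above WT, with an exact two-sided permutation p = 0.0238, the smallest that 6 libraries against 3 allow. That value is reached only when all 6 mutant libraries lie on one side of WT, as in the rule of separation. The enzyme list was chosen with earlier results of these data known, so the p is a description and not independent support. The permutation treats the 2 mutants as 1 group. Genes with at least 1 read numbered 16271 ± 238 in Snd1_KI, 15556 ± 339 in S6k2_RK and 16885 ± 204 in WT. Summed T-cell and B-cell markers ran from 1018 to 1403 normalized counts in Snd1_KI, from 506 to 1512 in S6k2_RK and from 2709 to 6301 in WT. Because the enzymes fill most of each library, the scaling matters: with equal totals in place of the authors' size factors, the median gene lay at -0.39 on the log2 scale in the mutant mean minus WT. Rises smaller than that shift depend on the scaling, and so do many larger ones. With equal totals 52 of 12030 genes tested were called higher, against 675 under the authors' scaling, and 4936 were called lower. The list counts with equal totals given below are to be read beside these numbers for all genes tested. Of the 900 separated higher genes, 44 stayed separated.

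**Figure D1:**
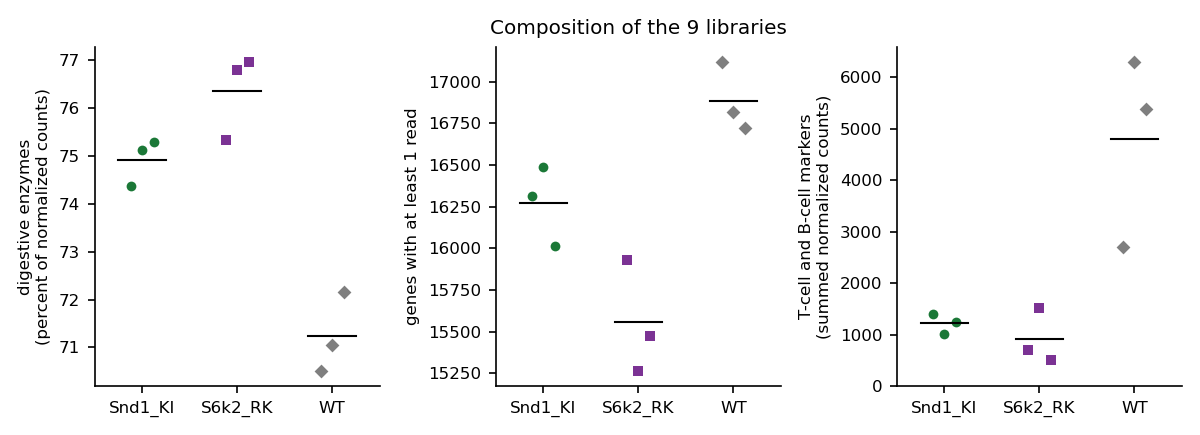
Composition of the 9 libraries by group: digestive enzymes as percent of normalized counts, number of genes with at least 1 read, and summed T-cell and B-cell markers in normalized counts. Points are libraries and lines are group means; the first 2 vertical axes do not start at 0. All 6 mutant libraries lie above WT for enzymes and below WT for genes detected and lymphocyte markers.

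The test was limma on the same log2 scale, fitted to all 11953 genes and 9 libraries, with Benjamini-Hochberg adjusted p below 0.05 as the call. It uses the same libraries as the rule of separation, so a call is a second description of the same values and not independent support. The mutant mean against WT gave 1455 calls, 12.2% of genes tested, with 675 higher (5.65%) and 780 lower (6.53%). Separation held for 15.1% of genes tested, 7.53% higher and 7.57% lower. Both held for 1172 genes (9.81%), of which 536 were higher (4.48%) and 636 were lower (5.32%). The values of Snd1_KI and of S6k2_RK given side by side below share the same 3 WT libraries. When each library was left out in turn, 185 of the 536 rises and 313 of the 636 falls were called in all 9 fits. Without WT replicate 2 the counts over all genes tested were 273 higher and 402 lower, without WT replicate 1 they were 333 and 529, and without Snd1_KI replicate 3 they were 446 and 624.

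The rises were small and the falls were large. The median log2 difference was 0.42 over the 900 separated higher genes, with 0.39 in Snd1_KI and 0.45 in S6k2_RK. Over the 905 separated lower genes it was -0.85, with -0.74 in Snd1_KI and -0.96 in S6k2_RK, against 0.00 over all genes tested. A difference of over 2-fold was found in 23 of the separated higher and 386 of the separated lower genes. The gap between the nearest mutant and WT libraries exceeded 1 on the log2 scale for 2 higher and 99 lower genes. At the edge of the rule, Stab1 lay just inside, with 193.62 normalized counts in Snd1_KI replicate 2 and 193.67 in WT replicate 2, and Epn1 lay just inside on the higher side. Tst lay just outside, with 199.96 normalized counts in S6k2_RK replicate 2 and 199.98 in WT replicate 2, as did Btg3.

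Of the genes named by the alleles, Snd1 itself rose in both mutants. Snd1 (chr6:28475139-28935162, plus strand, GRCm38) had 2808, 3181 and 2722 normalized counts in Snd1_KI, 2316, 3147 and 2940 in S6k2_RK, and 1906, 1893 and 2180 in WT. All mutant libraries were higher than every WT library, with a log2 difference of 0.51 ± 0.10 (SE; limma adjusted p = 0.0026), and with equal totals the difference was 0.11 (limma adjusted p = 0.306). Rps6kb2 (chr19:4153991-4163354, minus strand) had 42.4, 52.7 and 36.4 in Snd1_KI, 56, 25.5 and 24.7 in S6k2_RK, and 55, 65.8 and 53.1 in WT. Its groups overlapped, since S6k2_RK replicate 1 lay within the WT range, and its log2 difference of -0.60 ± 0.25 did not pass (limma adjusted p = 0.126). The paralogue Rps6kb1, which encodes S6K1, lay lower in all mutant libraries by a log2 difference of -0.20, which did not pass (limma adjusted p = 0.199). With equal totals, where the median gene lay at -0.39, both kinase genes were called lower. The differences there were -0.99 for Rps6kb2 and -0.61 for Rps6kb1 (limma adjusted p = 0.0099 and 0.0011). These counts check neither allele, because the labels do not say what the mutations do to the transcripts. Among the 36 genes tested within 5 Mb of Snd1, 5 were separated higher and 1 lower (16.7% in all), and among the 156 within 5 Mb of Rps6kb2, 18 were higher and 18 lower (23.1%), beside the 15.1% of all genes tested. On whole chromosomes the share ran from 12.3% on X to 19.0% on 19, leaving aside mitochondrial genes.

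The metallothioneins, small proteins that bind zinc and copper, gave some of the clearest rises. Mt2 (chr8:94172664-94173568) had 6749, 7773 and 6252 normalized counts in Snd1_KI, 8892, 8932 and 10451 in S6k2_RK, and 3568, 3733 and 2314 in WT. Mt1 (chr8:94179082-94180327) had 9126, 9899 and 8366 in Snd1_KI, 13228, 10256 and 12256 in S6k2_RK, and 5105, 5375 and 3533 in WT. For both genes every S6k2_RK library was above every Snd1_KI library, and every Snd1_KI library was above every WT library. The log2 differences were 1.36 ± 0.13 for Mt2 and 1.18 ± 0.12 for Mt1 (SE; limma adjusted p = 5.87e-06 and 1.84e-05). With equal totals they were 0.96 and 0.77. Slc30a2, which moves zinc into vesicles, had 276, 365 and 261 in Snd1_KI, 386, 334 and 272 in S6k2_RK, and 164, 136 and 174 in WT. It rose by 0.98 ± 0.14 on the log2 scale (limma adjusted p = 0.00016), without overlap of mutant and WT libraries. Of 18 tested genes of metallothioneins and zinc transporters, 5 rose and none fell, and 3 were separated higher, Mt1, Mt2 and Slc30a2. The list's median was 0.15 (all genes tested 0.00), and with equal totals it was -0.25, with 3 higher and 5 lower. In 6 of the 9 fits that leave out 1 library the rises numbered 3.

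**Figure D2:**
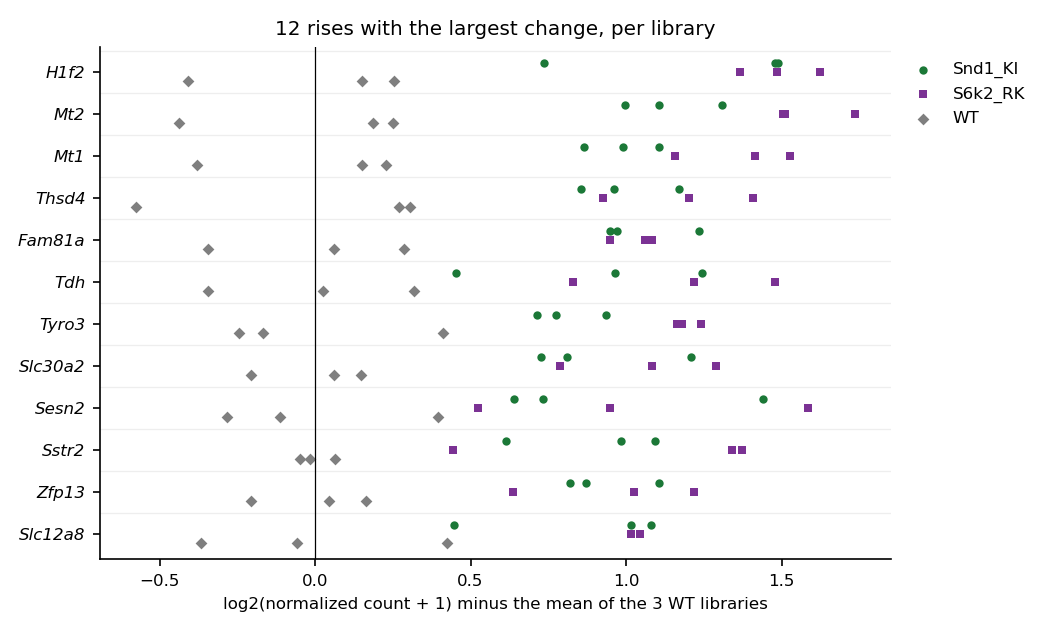
The 12 rises with the largest log2 difference among named genes, per library. The horizontal axis is log2(normalized count + 1) minus the mean of the 3 WT libraries; circles are Snd1_KI, squares S6k2_RK and diamonds WT. Mutant libraries lie to the right of all WT libraries for every gene, and the gap is wide for Mt1, Mt2, Fam81a and Slc30a2 and narrow for Slc12a8, Sesn2 and Tdh.

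The other large rises came from genes of varied function. H1f2, a linker histone that packs chromatin, had 516, 520 and 308 normalized counts in Snd1_KI, 571, 518 and 477 in S6k2_RK, and 205, 139 and 220 in WT. It rose by 1.36 ± 0.16 on the log2 scale (limma adjusted p = 4.36e-05), and H1f0, a linker histone of resting cells, rose by 0.49 ± 0.08 (limma adjusted p = 0.00065), 0.08 with equal totals. Replication-dependent histone messages such as that of H1f2 mostly lack polyA tails, so polyA libraries count only part of them. Muc1, a mucin of the apical membrane, stood out for the width of its gap: it had 1639, 1629 and 1523 in Snd1_KI, 1527, 1679 and 1876 in S6k2_RK, and 975, 968 and 957 in WT. Its WT libraries lay within a narrow range, and every mutant library lay far above them (log2 difference 0.76 ± 0.09; limma adjusted p = 3.22e-05). Zkscan17, a zinc-finger gene, had 174, 186 and 172 in Snd1_KI, 190, 195 and 210 in S6k2_RK, and 113, 91 and 110 in WT, again without overlap (0.84 ± 0.12).

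Among the remaining large rises were Thsd4, a matrix protein of microfibrils, with a log2 difference of 1.09 ± 0.19, and Fam81a with 1.04 ± 0.17. Tdh, which breaks down threonine, rose by 1.03 ± 0.19, although its lowest mutant library, at 119 in Snd1_KI, was close to its highest WT library, at 108. Tyro3, a receptor tyrosine kinase, had 73.6, 70.5 and 82.3 in Snd1_KI, 102, 96.6 and 97.7 in S6k2_RK, and 35.8, 37.8 and 57 in WT (1.00 ± 0.17). For Tyro3 the S6k2_RK libraries were all above those of Snd1_KI. Sstr2, a receptor for somatostatin, which restrains secretion, rose by 0.98 ± 0.22. Sesn2, a leucine sensor that restrains mTORC1, had 95.2, 167 and 102 in Snd1_KI, 184, 118 and 87.8 in S6k2_RK, and 49.7, 80.2 and 56.1 in WT. It rose by 0.98 ± 0.22 (limma adjusted p = 0.0076), but without WT replicate 1 or with equal totals it was no longer called. Zfp13 rose by 0.95 ± 0.16, and Slc12a8, of the cation-chloride cotransporter family, rose by 0.94 ± 0.16.

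Among digestive enzymes the calls were all higher under the authors' scaling. Of 35 tested enzyme genes, 15 rose and none fell, and 17 were separated higher. The log2 differences ran from -2.46 to 4.30 with a median of 0.51, which was 0.11 with equal totals (8 higher and 3 lower). The 4.30 was that of Amy2a4, an amylase gene called higher but not separated. It had 858, 37.9 and 190 normalized counts in Snd1_KI, 14, 0 and 1.24 in S6k2_RK, and 0, 0.901 and 0 in WT. S6k2_RK minus Snd1_KI was called for 3 of the 35. Try5, a trypsinogen, had 447208, 451319 and 428398 normalized counts in Snd1_KI, 537943, 543001 and 850749 in S6k2_RK, and 288549, 285504 and 282093 in WT. Its WT libraries lay within a narrow range, all mutant libraries were above them, and S6k2_RK replicate 3 was the highest (log2 difference 0.89 ± 0.19; limma adjusted p = 0.0044). Trypsinogen and amylase genes have near-identical copies, so the split of reads between copies is uncertain. Without those copies, the enzymes' share of normalized counts was 66.8% ± 0.419 in Snd1_KI, 67.3% ± 0.822 in S6k2_RK and 63.9% ± 0.759 in WT. Pnliprp2, a lipase-related protein, had 90490, 92342 and 98495 in Snd1_KI, 93432, 109436 and 118388 in S6k2_RK, and 55703, 49099 and 62852 in WT. All its mutant libraries were above WT by a wide margin (0.85 ± 0.13; limma adjusted p = 0.00029). Pla2g1b, the secreted phospholipase of pancreatic juice, rose by 0.71 ± 0.11, with 0.50 in Snd1_KI and 0.92 in S6k2_RK.

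The enzyme genes with the most counts were separated but less firmly called. Cel, the bile-salt-activated lipase, rose by 0.69 ± 0.21 (limma adjusted p = 0.035) and lost its call in 6 of the 9 fits that leave out 1 library. Pnliprp1 rose by 0.55 ± 0.18 (limma adjusted p = 0.0496) and lost its call in 7 of them. Dmbt1, a secreted scavenger-receptor glycoprotein, rose by 0.64 ± 0.17 and lost its call without WT replicate 1 and without WT replicate 2. Ctrb1, a chymotrypsinogen, and Pnlip, the pancreatic lipase, were separated higher but did not pass, with log2 differences of 0.61 ± 0.25 and 0.62 ± 0.23 (limma adjusted p = 0.126 and 0.094). Of the 35 enzyme genes, 7 were called higher without WT replicate 1, 8 without WT replicate 2 and 25 without S6k2_RK replicate 1. In bulk tissue, more enzyme RNA per acinar cell and more acinar cells among all cells cannot be told apart, and likewise for every cell type described here.

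Genes that set acinar identity and secretion mostly rose, and with equal totals none did. Of 16 tested acinar regulators, 9 rose and 2 fell under the authors' scaling, with a median of 0.46; with equal totals none rose, 3 fell and the median was 0.06. Nr5a2, a nuclear receptor of acinar cells, had 671, 639 and 762 normalized counts in Snd1_KI, 620, 601 and 591 in S6k2_RK, and 458, 383 and 442 in WT, without overlap (0.60 ± 0.10; limma adjusted p = 0.00053). Serpini2, a serpin of the exocrine pancreas, rose by 0.56 ± 0.10, and Aqp12, an acinar aquaporin, by 0.53 ± 0.08. Ptf1a, the transcription factor that specifies acinar cells, averaged 400 ± 38.7 in Snd1_KI, 551 ± 142 in S6k2_RK and 316 ± 34.5 in WT (SD, n = 3 each), a rise of 0.56 ± 0.14. Its partner Rbpjl moved the other way, with 579 ± 30.7 in Snd1_KI, 489 ± 60.4 in S6k2_RK and 778 ± 80.1 in WT (log2 difference -0.55 ± 0.10; limma adjusted p = 0.0017). Cckar, the receptor for the secretagogue cholecystokinin, rose by 0.47 ± 0.09 and Xbp1, which drives ER expansion, by 0.40 ± 0.09. Ptf1a, Rbpjl, Cckar and Xbp1 were picked after their values were seen.

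Some ER folding genes rose under the authors' scaling. Of 32 tested ER chaperones and folding factors, 13 rose and none fell, 9 were separated higher, and the median was 0.28; with equal totals none rose, 3 fell and the median was -0.12. Rises numbered 4 without WT replicate 1 or WT replicate 2, 7 without Snd1_KI replicate 3 or S6k2_RK replicate 3, and 8 without S6k2_RK replicate 2. Without S6k2_RK replicate 1 they numbered 18. Derl3, a factor of ER-associated degradation whose promoter is printed above, had 868, 955 and 1142 normalized counts in Snd1_KI, 1004, 1296 and 1228 in S6k2_RK, and 660, 585 and 795 in WT. Its mutant libraries were all above WT, with Snd1_KI replicate 1 the nearest (0.67 ± 0.12; limma adjusted p = 0.001). Sil1, the exchange factor of the chaperone BiP, rose by 0.52 ± 0.09, and Pdia6, a disulfide isomerase, by 0.47 ± 0.10 (not called without WT replicate 2). Hspa5, which encodes BiP and was picked after its values were seen, averaged 7574 ± 572 in Snd1_KI, 8590 ± 2160 in S6k2_RK and 6462 ± 520 in WT, and its log2 difference of 0.31 did not pass (limma adjusted p = 0.114). Of 29 tested genes of ER translocation and glycosylation, 7 rose and 1 fell, with a median of 0.14. With equal totals none rose, 15 fell and the median was -0.26, while 4936 of all 12030 genes tested were called lower. Without WT replicate 2 the rises numbered 2 under the authors' scaling. Rpn2, a subunit of the oligosaccharyltransferase, rose by 0.55 ± 0.11, Srp68 of the signal recognition particle by 0.42 ± 0.09, and Stt3a, a catalytic subunit of the oligosaccharyltransferase, by 0.46 ± 0.11 (not called without WT replicate 2).

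Targets of ATF4, the transcription factor of the amino-acid shortage response, rose in part. Of 30 tested genes 9 rose and none fell, 6 were separated higher, and the median was 0.27. S6k2_RK minus Snd1_KI was called for 1 of the 30. With equal totals 1 rose, 6 fell and the median was -0.14. Asns, asparagine synthetase, had 3342, 3420 and 3489 normalized counts in Snd1_KI, 3099, 3928 and 3802 in S6k2_RK, and 2557, 2739 and 2513 in WT, without overlap (0.43 ± 0.09; limma adjusted p = 0.0036). Chac1, which degrades glutathione, had 692, 973 and 616 in Snd1_KI, 795, 934 and 513 in S6k2_RK, and 435, 510 and 348 in WT. Its separation was narrow, since S6k2_RK replicate 3 and WT replicate 2 lay close together (0.79 ± 0.17; limma adjusted p = 0.0049). With equal totals Chac1 was not called (0.38, limma adjusted p = 0.104). Aldh1l2, a mitochondrial folate enzyme, rose by 0.45 ± 0.10. Among aminoacyl-tRNA synthetases, which charge tRNAs with amino acids, 6 of 20 rose and none fell (median 0.23, and -0.17 with equal totals, where 1 rose and 2 fell). That count rests on the full set of libraries: without S6k2_RK replicate 1 it was 10, and without any other single library it was 1 to 3. Wars1, the tryptophan enzyme, led with 1649, 1653 and 1394 in Snd1_KI, 1637, 1766 and 1798 in S6k2_RK, and 984, 1020 and 1024 in WT. Its mutant libraries were far above WT (0.70 ± 0.09; limma adjusted p = 4.83e-05), and it was also called higher with equal totals (0.30; limma adjusted p = 0.0123). Qars1 and Mars1 rose by 0.43 ± 0.11 and 0.33 ± 0.09, and with equal totals Mars1 turned to -0.08. Qars1 lost its call without WT replicate 2, and Mars1 in 8 of the 9 fits.

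The translation machinery and the mTOR pathway, in which S6K2 acts, changed modestly. Of 43 tested translation factors 9 rose and none fell (median 0.15). With equal totals none rose, 22 fell and the median was -0.25, while 4936 of all 12030 genes tested were called lower. Eef2, the elongation factor that moves the ribosome along, had 18904, 20595 and 18928 normalized counts in Snd1_KI, 20244, 22640 and 24258 in S6k2_RK, and 13649, 12141 and 15369 in WT. All mutant libraries were above WT (0.61 ± 0.10; limma adjusted p = 0.00067). Pdcd4, an inhibitor of the initiation helicase eIF4A and a substrate of S6 kinases, had 1030, 1037 and 1063 in Snd1_KI, 1218, 1134 and 1460 in S6k2_RK, and 750, 756 and 784 in WT. For Pdcd4 all S6k2_RK libraries lay above Snd1_KI, and all Snd1_KI libraries above WT (0.59 ± 0.09; limma adjusted p = 0.00037). Eif3a, a scaffold of the initiation complex eIF3, rose by 0.53 ± 0.10. Of 29 tested genes of the S6K and mTOR pathway 5 rose and 1 fell (median 0.16); with equal totals none rose, 13 fell and the median was -0.24. Rises numbered 2 without WT replicate 2, 3 without WT replicate 1, Snd1_KI replicate 3 or S6k2_RK replicate 3, and 8 without WT replicate 3. Deptor, an inhibitor bound to mTOR, rose by 0.51 ± 0.09, and Insr, the insulin receptor, by 0.57 ± 0.11. Akt1 rose by 0.37 ± 0.09 under the authors' scaling and lay at -0.03 with equal totals; its call was lost without WT replicate 2. Of 36 tested genes of ribosome biogenesis 2 rose, near the 5.65% of all genes tested that were called higher. The 2 were Ncl, which encodes nucleolin, by 0.33 ± 0.09 and Ubtf, a factor of ribosomal RNA transcription, by 0.29 ± 0.09. With equal totals none of the 36 rose, 21 fell and the median was -0.44 (-0.04 under the authors' scaling). Ncl and Ubtf turned to -0.07 and -0.11 there, and lost their calls in 5 and 7 of the 9 fits. In the list of arginine methylation and Tudor proteins, Snd1 was the 1 gene of 15 called under the authors' scaling (median -0.07); with equal totals none rose, 8 fell and the median was -0.46.

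Markers of injury and of ducts held some rises. Muc1, described above, is in both lists and counts among the rises of each. Of 20 tested genes of acinar injury and metaplasia 4 rose and none fell (median 0.23, and -0.17 with equal totals, where 1 rose and 2 fell). Krt18, a keratin of simple epithelia, had 1841, 1648 and 1676 normalized counts in Snd1_KI, 1833, 2029 and 2032 in S6k2_RK, and 1234, 1258 and 1234 in WT. Its mutant libraries stood well above a tight WT range (0.56 ± 0.08; limma adjusted p = 0.0002). Clu, a secreted chaperone, rose by 0.62 ± 0.12 (0.22 with equal totals). Reg1, a secreted lectin induced in pancreatitis that was picked after its values were seen, averaged 145276 ± 33253 in Snd1_KI, 191054 ± 53691 in S6k2_RK and 155133 ± 49618 in WT, and did not pass (limma adjusted p = 0.762). Of 19 tested ductal markers 4 rose and none fell (median 0.19, and -0.21 with equal totals, where 1 rose and 5 fell); without WT replicate 3 the rises numbered 2. Krt19, a duct keratin, rose by 0.45 ± 0.11 (not called without WT replicate 1), and Epcam, an epithelial adhesion protein, by 0.48 ± 0.12 (not called without WT replicate 3).

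**Figure D3:**
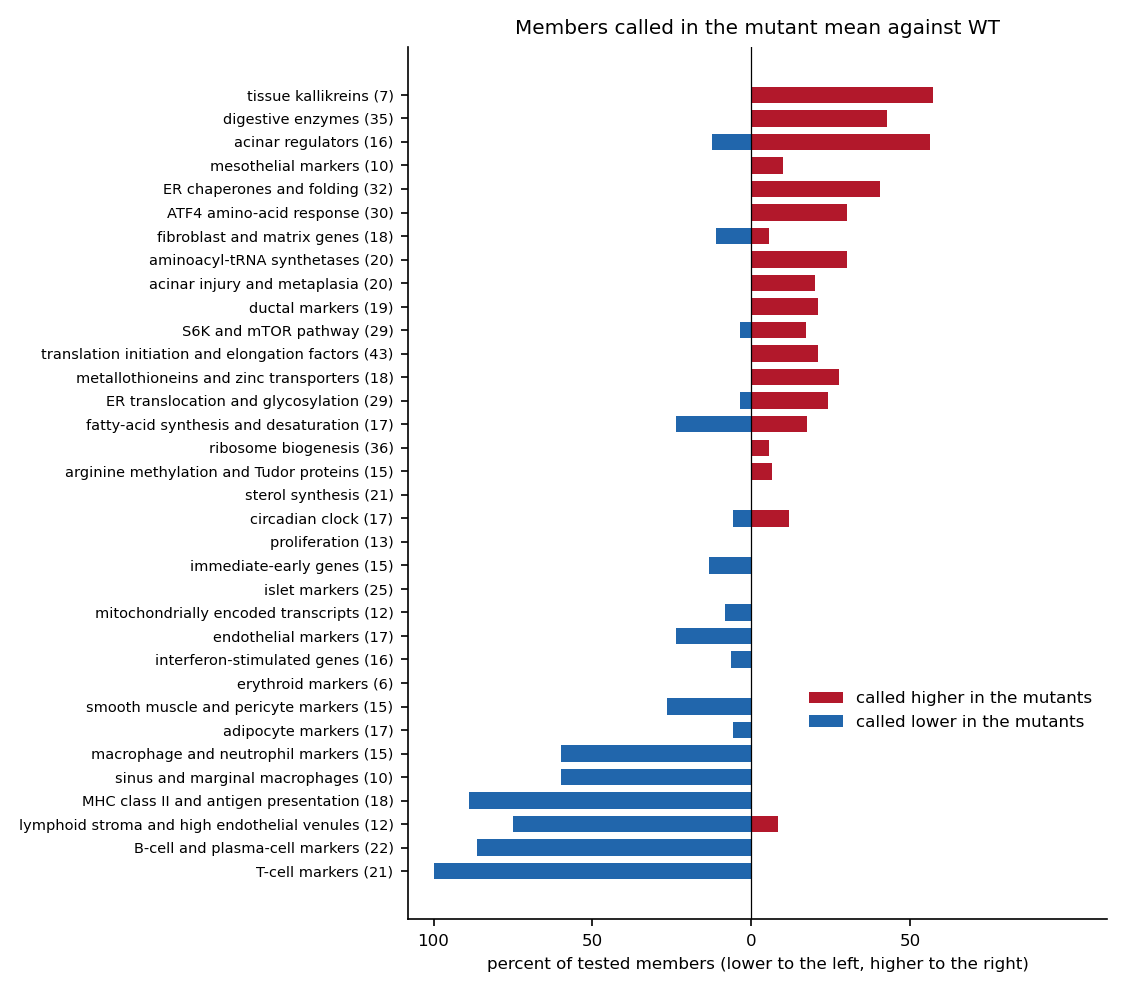
Members of each list called in the mutant mean against WT (limma adjusted p below 0.05), as percent of tested members, lower to the left and higher to the right. Numbers of tested members are in brackets, lists run down the page by median log2 difference, and lists with under 5 tested members are not drawn. Enzyme, acinar and ER lists extend to the right, and lymphocyte, MHC and macrophage lists to the left, with all 21 T-cell markers lower.

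The falls were led by genes of lymphocytes and lymph-node cells. Of 96 tested genes in 6 immune lists, 69 were separated lower and 1 was separated higher, Ltbr, a receptor for lymphotoxin, with a rise of 0.37 ± 0.11. All 21 tested T-cell markers fell, 18 of them without overlap, with a median log2 difference of -3.53. Of 22 tested B-cell and plasma-cell markers 19 fell, 18 without overlap, with a median of -2.87. The directions of these lists were the same with equal totals. That scaling lowers every mutant library relative to every WT library, so it could not have turned a fall. Cd4, the co-receptor of helper T cells, had 9.52, 3.10 and 12.8 normalized counts in Snd1_KI, 10, 9.39 and 8.66 in S6k2_RK, and 54.1, 171 and 163 in WT. Its WT replicate 1 was the lowest of the WT libraries and still far above the highest mutant library. The log2 difference was -3.64 ± 0.40 (SE; limma adjusted p = 3.15e-05). Trac, the constant segment of the T-cell receptor alpha chain, averaged 4.52 in Snd1_KI and 48.0 in WT, and had no read in the S6k2_RK libraries. Against 3 reads over the S6k2_RK group it was at least 40.2-fold lower there than in WT. Trbc2, of the receptor's beta chain, and Cd5, a brake on its signal, had log2 differences of -3.50 ± 0.40 and -3.89 ± 0.50.

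B-lineage genes showed the same split. Ighg1, a constant segment of immunoglobulin G, had 6.06, 0.774 and 17.1 normalized counts in Snd1_KI, 7, 12.1 and 6.18 in S6k2_RK, and 120, 475 and 327 in WT, a log2 difference of -5.16 ± 0.53 (limma adjusted p = 1.84e-05). Igha, of the secretory immunoglobulin A, had 38.1, 40.3 and 55.6 in Snd1_KI, 27, 41.6 and 7.42 in S6k2_RK, and 151, 215 and 470 in WT. For both segments WT replicate 1 was the lowest WT library, and every mutant library lay below it. Ighd and Cd79a, parts of the B-cell receptor, had log2 differences of -2.87 ± 0.35 and -2.65 ± 0.32. That of Spib, a B-cell transcription factor, was -3.03 ± 0.36. By annotation, 5 of 6 tested immunoglobulin constant segments, 3 of 8 variable segments and all 3 T-cell receptor constant segments were separated lower. Immunoglobulin segments share sequence, so the split of reads among them is uncertain. Genes used across lymphocytes fell too, with a log2 difference of -2.91 ± 0.33 for Ikzf1, the transcription factor Ikaros. The differences were -2.77 ± 0.20 for Coro1a, an actin regulator of blood cells, and -2.57 ± 0.22 for Rac2, a GTPase of blood cells.

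**Figure D4:**
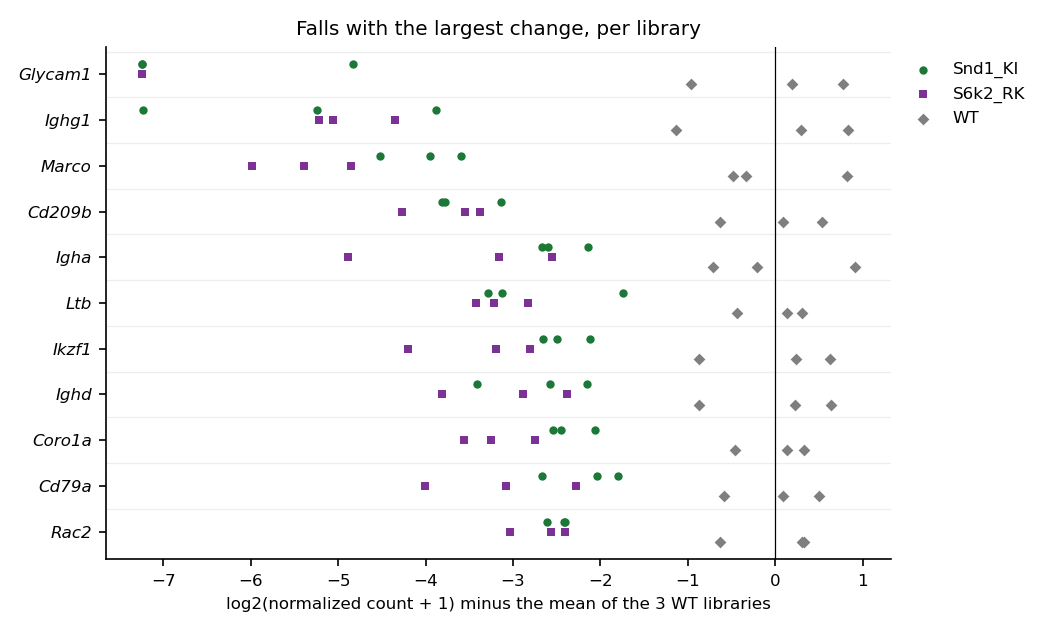
The falls with the largest log2 differences among the genes reported, per library. The horizontal axis is log2(normalized count + 1) minus the mean of the 3 WT libraries; circles are Snd1_KI, squares S6k2_RK and diamonds WT. All mutant libraries lie to the left of WT, and for Marco every S6k2_RK library lies to the left of every Snd1_KI library.

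Genes of lymph-node vessels, stroma and sinuses fell with them. Glycam1, a mucin-like protein made by high endothelial venules, had 5, 0 and 0 reads in Snd1_KI, 0 reads in all S6k2_RK libraries, and 88, 286 and 175 reads in WT. Against 3 reads over the S6k2_RK group, it was at least 142-fold lower there than in WT. Of 12 tested genes of lymphoid stroma and high endothelial venules 9 fell, and the list's summed level ran from 706 to 806 normalized counts in Snd1_KI, from 603 to 796 in S6k2_RK and from 1290 to 2226 in WT. Ltb, the lymphotoxin that maintains this stroma, had a log2 difference of -2.94 ± 0.31. Mfge8, a bridging protein for engulfed cells, had 278, 240 and 284 in Snd1_KI, 276, 251 and 251 in S6k2_RK, and 470, 711 and 617 in WT. The mutant libraries for Mfge8 lay close together and well below WT (-1.17 ± 0.12; limma adjusted p = 1.84e-05). Marco, a scavenger receptor of sinus and marginal-zone macrophages, had 30.3, 15.5 and 23.5 in Snd1_KI, 8, 12.1 and 4.95 in S6k2_RK, and 269, 298 and 666 in WT. Its log2 difference was -4.71 ± 0.30 (limma adjusted p = 7.13e-08), with every S6k2_RK library below every Snd1_KI library. Cd209b, a lectin of the same macrophages, had 15.6, 25.6 and 16 in Snd1_KI, 19, 21.5 and 11.1 in S6k2_RK, and 150, 249 and 337 in WT. The mutant libraries for Cd209b were mixed in order and all far below WT (-3.65 ± 0.27; limma adjusted p = 2.46e-07). Siglec1, a sialic-acid receptor of these cells, had a log2 difference of -2.28 ± 0.27. The named markers lay at the far end of the sinus list, in which 6 of 10 genes fell and the log2 differences ran from -4.71 to 0.49 around a median of -0.83. The list's summed level ran from 497 to 592 in Snd1_KI, from 329 to 412 in S6k2_RK and from 1043 to 1940 in WT. Whether the amount of lymph-node tissue taken with the organ differed between groups was not tested.

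Genes of antigen presentation and of general macrophages also held falls. Of 18 tested genes of MHC class II and antigen presentation 16 fell, all without overlap (median -1.57). Cd74, the invariant chain, had 496, 376 and 459 normalized counts in Snd1_KI, 322, 545 and 344 in S6k2_RK, and 929, 1490 and 1593 in WT (-1.64 ± 0.17; limma adjusted p = 1.84e-05). B2m, the light chain of MHC class I, had 597, 589 and 642 in Snd1_KI, 642, 770 and 650 in S6k2_RK, and 943, 1200 and 1252 in WT (-0.80 ± 0.10). For Cd74 and B2m every mutant library lay below WT replicate 1, the lowest of the WT libraries. H2-D1, a class I heavy chain with close relatives in the genome, had a log2 difference of -0.49 ± 0.10. Of 15 tested macrophage and neutrophil markers 9 fell, 5 without overlap (median -0.71); without WT replicate 3 this count was 3, and with equal totals it was 14. Ptprc, which encodes the leukocyte antigen CD45, had a log2 difference of -2.51 ± 0.27, Ctss, a lysosomal protease of antigen-presenting cells, one of -1.55 ± 0.17, and C1qc, a complement subunit, one of -0.68 ± 0.18. C1qc lost its call without WT replicate 1 and without WT replicate 3. Ctss is in both the antigen-presentation and the macrophage list and counts among the falls of each. Of 16 tested interferon-stimulated genes 1 was called, lower (median -0.35), near the 6.53% of all genes tested that were called lower. With equal totals 10 were lower (median -0.74).

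Most of the 905 separated lower genes, 836 of them, were outside these 6 lists. Among abundant ones, Actb, cytoplasmic actin, had 1765, 1654 and 1691 normalized counts in Snd1_KI, 1675, 1538 and 1578 in S6k2_RK, and 2330, 3140 and 3432 in WT. Tmsb4x, which binds actin monomers, had 1018, 1031 and 973 in Snd1_KI, 1095, 835 and 900 in S6k2_RK, and 1489, 1857 and 1988 in WT. Both lay in a narrow mutant range below every WT library, by -0.83 ± 0.10 and -0.86 ± 0.10 (limma adjusted p = 6.16e-05 and 4.83e-05). Psap, the precursor of lysosomal saposins, had a log2 difference of -0.59 ± 0.11, and Ddx5, an RNA helicase, one of -0.61 ± 0.10. Lymphocytes also express Actb, Tmsb4x and Ddx5, and the part of the lower lymphocyte level in these falls was not tested.

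The number of falls among vascular genes depended on the scaling. With equal totals 4936 of all 12030 genes tested were called lower. Of 17 tested endothelial markers 4 fell (median -0.30), and with equal totals 14 fell (median -0.70). Without S6k2_RK replicate 1 this count was 6, without Snd1_KI replicate 1 it was 3, and without any other single library it was 2. Pecam1, the adhesion protein CD31, had 493, 469 and 432 normalized counts in Snd1_KI, 599, 427 and 497 in S6k2_RK, and 704, 682 and 884 in WT, without overlap (-0.64 ± 0.12; limma adjusted p = 0.0014). Cldn5, of endothelial tight junctions, had a log2 difference of -2.06 ± 0.38. Egfl7, a secreted endothelial protein, had one of -0.81 ± 0.26 and lost its call in 8 of the 9 fits. Of 15 tested smooth muscle and pericyte markers 4 fell (median -0.51; 11 with equal totals, median -0.89), among them Acta2, smooth muscle actin, with 135, 215 and 164 in Snd1_KI, 196, 256 and 157 in S6k2_RK, and 334, 342 and 316 in WT. The Acta2 mutant libraries varied more than the WT libraries and stayed below them (-0.85 ± 0.15; limma adjusted p = 0.0014). Tagln and Mylk, both of the contractile apparatus, had log2 differences of -0.94 ± 0.18 and -0.70 ± 0.13. In the immediate-early list 2 of 15 were called, Klf2, an endothelial and lymphocyte transcription factor (-0.89 ± 0.18), and Zfp36, which speeds messenger RNA decay (-0.68 ± 0.16, not called without WT replicate 2).

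Lipid genes held calls in both directions. Of 17 tested genes of fatty-acid synthesis and desaturation 3 rose and 4 fell (median -0.04), and 3 were separated higher and 1 lower. With equal totals 1 rose and 8 fell (median -0.44). The falls numbered 2 in 6 of the 9 fits that leave out 1 library, and without WT replicate 2 the rises numbered 1. Thrsp, a lipogenic protein, had 55.4, 58.9 and 56.7 normalized counts in Snd1_KI, 99, 51 and 13.6 in S6k2_RK, and 175, 186 and 210 in WT. Its S6k2_RK libraries were spread widely while those of Snd1_KI and WT were tight, and all mutant libraries were below WT (-1.95 ± 0.36; limma adjusted p = 0.0017). Fads2, a fatty-acid desaturase, had 218, 305 and 249 in Snd1_KI, 236, 200 and 157 in S6k2_RK, and 131, 109 and 136 in WT, a rise of 0.83 ± 0.15. Acacb, a mitochondrial acetyl-CoA carboxylase, rose by 0.65 ± 0.15 (not called without WT replicate 2 or with equal totals). Summed adipocyte markers, which bear on this list, ran from 4459 to 6935 in Snd1_KI, from 3109 to 5666 in S6k2_RK and from 4522 to 8212 in WT, and the groups overlapped; their part in the fall of Thrsp was not tested. Of the clock genes, 2 of 17 rose, Bhlhe41 by 0.78 ± 0.24 and Cry2 by 0.36 ± 0.11, and 1 fell; the 2 rises lost their calls in 5 and 6 of the 9 fits, and Cry2 lay at -0.04 with equal totals.

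Islet, sterol, proliferation and erythroid genes gave no limma calls under the authors' scaling. With equal totals limma called 11 of 25 islet, 9 of 21 sterol, 4 of 13 proliferation and 2 of 6 erythroid genes, all lower. Over all genes tested, 4936 of 12030 were called lower with that scaling. Of 25 tested islet markers, limma called none, 3 had an unadjusted p under 0.05, and edgeR and DESeq2 on recovered reads called none. Ins2, which encodes insulin and was picked after its values were seen, averaged 21291 ± 6120 in Snd1_KI, 26412 ± 7676 in S6k2_RK and 28711 ± 1705 in WT, and the groups overlapped in spread (limma adjusted p = 0.243). Of 21 tested genes of sterol synthesis, limma called none, with 5 at an unadjusted p under 0.05, while edgeR called 2 lower and DESeq2 1 lower. Of 13 proliferation genes limma called none, with 2 at an unadjusted p under 0.05, while edgeR called 1 lower and DESeq2 none. Of 6 erythroid markers limma, edgeR and DESeq2 called none, with 1 at an unadjusted p under 0.05 in limma.

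In several lists the mutants' own medians lay apart although both share the WT libraries. Beside the counts below, 5.65% of all genes tested were called higher and 6.53% lower under the authors' scaling. With equal totals 52 of 12030 were called higher and 4936 lower. Of 7 tested tissue kallikreins, serine proteases of exocrine tissue, 4 rose but 1 was separated, with medians of 0.67 in Snd1_KI and 0.29 in S6k2_RK; with equal totals none rose and 1 fell. Of 17 tested adipocyte markers 1 fell and none was separated, with medians of -0.18 in Snd1_KI and -1.03 in S6k2_RK; with equal totals 13 of 18 fell and 3 were separated lower. Of 10 mesothelial markers 1 rose, Krt19, the duct keratin reported above. The list's medians were 0.75 in Snd1_KI and 0.00 in S6k2_RK, and with equal totals none of the 10 was called. Of 18 fibroblast and matrix genes 1 rose and 2 fell, with medians of 0.34 in Snd1_KI and 0.11 in S6k2_RK. One of the falls was Thy1, which is also in the T-cell list. The median for the mutant mean turned to -0.15 with equal totals. Of 12 mitochondrially encoded transcripts 1 fell under the authors' scaling and 10 fell with equal totals. They took 0.818% ± 0.069 of normalized counts in Snd1_KI, 0.783% ± 0.236 in S6k2_RK and 1.27% ± 0.221 in WT (SD, n = 3 each; exact two-sided permutation p = 0.0476 for the mutants against WT). The differences between the mutants in these lists were not tested as lists.

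Separated genes differed by their count level, which the rule used only as a floor. Among the 3856 genes tested with means of 10 to 50, 1.92% were separated higher and 11.7% lower. Among the 5703 genes at 50 to 250 the shares were 6.45% and 6.35%, and among the 1946 at 250 to 1000 they were 17.0% and 4.37%. Among the 369 genes at 1000 to 5000 they were 26.8% and 1.90%, and among the 79 genes at 5000 and above 36.7% and 0%. The median mean count was 254 for separated higher genes, 50.2 for separated lower genes and 91.5 for all genes tested. The part of counting noise, which is larger at low counts, was not tested. The median exonic length was 4443 bases in higher, 4485 in lower and 4563 in all genes tested, and protein-coding genes made up 99.3%, 95.5% and 97.2% of them.

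**Figure D5:**
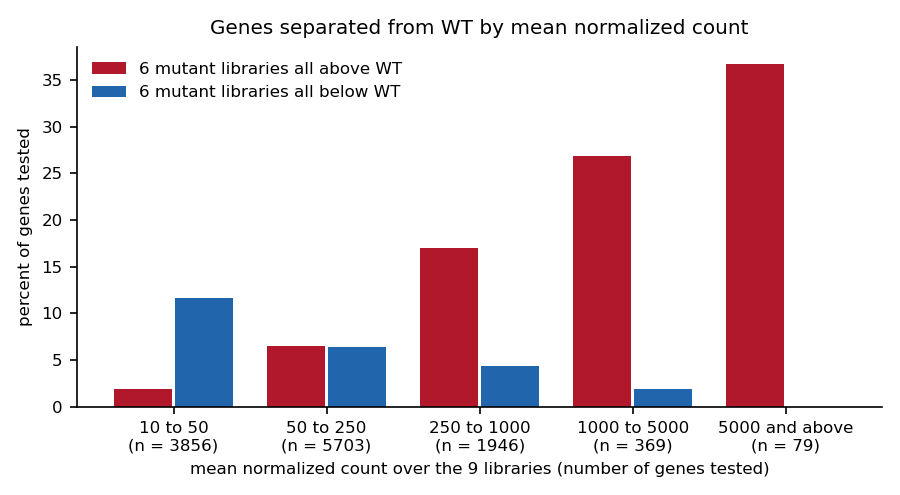
Share of genes tested that were separated, by mean normalized count over the 9 libraries. Bars give percent of the genes in each bin with all 6 mutant libraries above WT or all below WT; the share above grows from 1.92% to 36.7% across the bins and the share below shrinks from 11.7% to 0%.

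Under both scalings, 44 genes lay above WT in all 6 mutant libraries, all of them among the 900. They include Mt1, Mt2, H1f2, Muc1, Zkscan17, Wars1, Fam81a, Krt18, Eef2, Pdcd4, Tyro3, Sstr2, Slc30a2 and Aqp12, and 7 genes of the enzyme list, Try5, Pnliprp2, Pla2g1b, Cel, Pnlip, Ctrb1 and Cpb1. Of these 44, 40 were called under the authors' scaling and 27 under both. Others of the 44, picked after their values were seen, were Lamb3, a laminin chain, which averaged 300 in Snd1_KI, 293 in S6k2_RK and 155 in WT, Slc41a1, a magnesium transporter, with 1876, 1798 and 1127, and Ndrg1, a stress-induced protein, with 1697, 1839 and 1034 in the same groups. Ric3 and Krt20 had the widest gaps of the 44 at low counts: Ric3, a chaperone of acetylcholine receptors, averaged 27.5 in Snd1_KI, 22.4 in S6k2_RK and 5.49 in WT, and Krt20, an epithelial keratin, 13.1, 16.6 and 3.00. All 905 separated lower genes were also below WT with equal totals, but this was fixed in advance. Every mutant library had a larger normalized total (at least 1.549e+07) than every WT library (at most 1.324e+07). Equal totals therefore lowers all mutant values relative to WT, and no separated fall could be lost.

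The rule did not use the difference between the mutants directly, but it is not free of it. Both mutants had to lie on the same side of WT, which leaves out genes where 1 mutant stayed near WT. A low number of such differences among separated genes therefore follows in part from the rule. S6k2_RK minus Snd1_KI was called for 14 of 11953 genes (0.117%), and 1 of these was among the 1805 separated genes, Srrm2. Srrm2, a scaffold of the spliceosome (chr17:23790532-23824741, plus strand), had 500, 428 and 417 normalized counts in S6k2_RK, 680, 639 and 661 in Snd1_KI, and 870, 817 and 789 in WT. The 3 groups formed 3 separate levels, with S6k2_RK the lowest. Its log2 difference was -0.56 ± 0.11 for S6k2_RK minus Snd1_KI (limma adjusted p = 0.0447) and -0.60 ± 0.09 for the mutant mean minus WT (limma adjusted p = 0.00034). At an unadjusted p under 0.05 there were 162 of the 1805, beside 1207 of all 11953 genes tested. DESeq2 called 8 of the 1805. Few calls do not show that the mutants were alike, given 3 mice per group.

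By sign, S6k2_RK lay further from WT than Snd1_KI for most separated genes under the authors' scaling. It was above Snd1_KI for 617 of 900 higher genes (68.6%) and below it for 677 of 905 lower genes (74.8%), while it was above it for 49.2% of all genes tested. With equal totals S6k2_RK was above Snd1_KI for 97 of the 900, 70 of the 905 and 15.9% of all genes tested, so the order among the rises depends on the scaling. Leaving out S6k2_RK replicate 1, limma called 20 of the 1805 between the mutants, and leaving out any Snd1_KI library it called none (121 to 137 at an unadjusted p under 0.05).

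Some genes were called in the mutant mean without being separated, 283 in all. For 7 of these the mutants differed from each other: Nupr1, BC034090, Lars2, Klk1b11, 1810009J06Rik, Amy2a4 and Gm29216. Nupr1, a stress-response regulator of chromatin, had 22393, 21331 and 26038 normalized counts in S6k2_RK, 12866, 14453 and 9312 in Snd1_KI, and 9196, 9638 and 9641 in WT. Its S6k2_RK libraries stood apart, while Snd1_KI replicate 3 lay within the WT range. Klk1b11, a tissue kallikrein, had 119, 113 and 143 in S6k2_RK, 259, 256 and 238 in Snd1_KI, and 100, 125 and 136 in WT, so all Snd1_KI libraries lay above WT while S6k2_RK and WT overlapped. Conversely, 633 genes were separated without being called, 364 higher and 269 lower.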

How the data were processed

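Per the labels' protocols, RNA from ground whole pancreas was polyA-selected and sequenced as strand-specific paired-end libraries (150 bp; roughly 40 M pairs stated for each). Per the submitters' processing notes DESeq2 was used with builds GRCm38 and mm10; the sources used here do not name the aligner, the counter or the annotation. The authors deposited 1 table of signal values, that is, gene counts divided by 1 size factor per library, for 46078 genes and 9 libraries. All values (100%) were whole multiples of the value of 1 read, within 1e-06, so whole reads were recovered: 13461427 to 21034501 per library. For S6k2_RK replicate 1 that value is close to 1, so edgeR was also run without it.

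Genes with a mean of at least 10 were tested with limma 3.58.1 (R 4.3.3) on log2(normalized count + 1), with trended variances and 1 model for all 9 libraries; this scale understates changes of low counts. Calls used two-sided Benjamini-Hochberg adjusted p below 0.05. Alternatives were pseudocounts 0.5 and 5, a mean of at least 50, no filter, equal totals, TMM, edgeR 4.0.16, DESeq2 1.42.0, a 2-group fit, a replicate block, a robust fit and leaving out each library. Shares were compared by exact permutation. The procedure was tested on simulated data. It recovered 92 of 100 planted changes of 1 on the log2 scale and 29 of 100 of 0.5. Of the 11953 genes simulated, 14 without a planted change were called. Changes were planted only in genes with a mean of at least 50, so recovery at means of 10 to 50 was not tested. Most changes of 0.5 were thus missed, so a gene or list without calls can still have changed. Libraries of a group are separate mice, per the labels; no 2 were copies. Floors cover counting error only, whereas the SE and SD values also hold the variation between mice.

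Of 4669 identifiers without a symbol, 3737 took theirs from a reference table. Coordinates come from GENCODE release 21 on GRCm38. The members, the 35 gene lists and the tests were chosen with earlier results of these data known. The genes named were the targeted genes and, among genes called and separated with a mean of at least 50 and an informative symbol, the 12 largest rises and falls, the 5 with the widest gap and the 5 with the highest mean in each direction, those that differ between mutants, and up to 3 per list with 2 or more such members. Of the genes so named, 3 are not reported here.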

Additional observations from a re-analysis of the deposited data

Results flagged for a closer look

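Srrm2 was the 1 separated gene whose difference between the mutants passed the test: S6k2_RK minus Snd1_KI was -0.56 ± 0.11 on the log2 scale (limma adjusted p = 0.0447, range 0.00216 to 0.242 over the alternatives), with all 3 S6k2_RK libraries below all 3 Snd1_KI libraries. It was not called with the replicate block (limma adjusted p = 0.0607), nor without any Snd1_KI library, S6k2_RK replicate 2 or 3, or WT replicate 1.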

How the results depend on the processing

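Scaling had the largest effect: with equal totals, 52 genes were called higher and 4936 lower, and 44 were separated higher and 3866 lower. With TMM the calls were 617 and 803. No named fall changed direction under the alternatives run, and with equal totals none could. Among the named rises, Mars1, Akt1, Ncl, Ubtf and Cry2 turned with equal totals, to log2 differences of -0.0768, -0.0338, -0.0744, -0.1084 and -0.0414. A minimum mean of 50 left 433 calls lower and 454 genes separated lower, because fewer genes were tested. No filter gave 586 higher and 998 lower, the 2-group fit 561 and 690, edgeR 616 and 909, and DESeq2 606 and 835. Leaving out 1 library gave 273 to 883 calls higher and 402 to 965 lower, and 984 to 1581 genes separated higher and 985 to 1479 lower; without S6k2_RK replicate 1, edgeR, a fit added after the data were seen, gave 774 and 1091. Fewer libraries make separation easier. Between the mutants, the calls among separated genes numbered 3 at pseudocount 5, 2 at a minimum mean of 50, 5 with equal totals, 2 with TMM, 2 with edgeR, 8 with DESeq2, 2 with the robust fit, 0 to 20 when 1 library was left out, and 14 with edgeR without S6k2_RK replicate 1.

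Replicate numbers are shared between groups in the labels, but they did not pair the samples: same-numbered deviations correlated from -0.0781 to 0.0454 over 9 pairs, none above 0.1, and other-numbered ones from -0.0737 to 0.127. With the replicate block limma called 574 higher and 714 lower, and 0 separated genes between the mutants (157 at an unadjusted p under 0.05; edgeR 2, DESeq2 8, both without the block). The depth and 3 mice per group limit small changes of low genes.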
